A study of Homo sapiens with 6 samples.

Results

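NTS, the gene of neurotensin and neuromedin N, and the neurotensin receptor genes NTSR1 and NTSR2 were followed in the human leukaemia line TF-1 with and without added PRL-3. They were chosen by gene symbol, together with the sortilin gene SORT1, and each was read from the probe set with the highest mean over all 6 arrays. Of the 4 genes, 3 had a probe set named here, 1 probe set each, among 18377 genes tested, and SORT1 was not analysed here. TF-1 is an erythroleukaemia line that depends on a cytokine, and all arrays came from cells grown in RPMI with fetal bovine serum and 5 ng/ml human interleukin-3. The PRL-3 group (3 arrays, numbered 4 to 6) was transfected with the human PRL-3 gene. The control group (3 arrays, numbered 1 to 3) was transfected with the control vector, which the labels call pEGFP. The labels do not say whether each line was 1 clone or a pool, or whether a group's arrays stand for separate cultures. The p-values below therefore rest on a spread between arrays that may be technical. NTS was taken up because it was among the genes with the largest rise in an earlier look at these arrays. Its difference is therefore given as a description, with no test, while NTSR1 and NTSR2 were taken up for their role as its receptors.

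Neurotensin is a short peptide hormone and transmitter made by neurons and by endocrine cells of the small intestine. It is cut from a precursor that also holds neuromedin N, a smaller peptide with a similar end. NTSR1 and NTSR2 are receptors of the G protein-coupled class that bind it at the cell surface, NTSR1 with the higher affinity and mainly through Gq, phospholipase C and protein kinase C. Sortilin, also called the third neurotensin receptor, is of another kind, a sorting receptor of the VPS10 family that carries cargo between the Golgi, endosomes and the surface. In several tumours of epithelial origin NTS and NTSR1 form a growth loop, and blood progenitors are not among the usual sources of the peptide.

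The values are deposited intensities per probe set, given below as log2. The 6 arrays had medians between 89.8 and 92.9 on the linear scale. Control 1 and PRL-3 5 correlated with each other across genes (r = 0.9863) about as well as control 1 with control 3 (r = 0.9861), a description, since genes are not replicates. Values without control 1 and PRL-3 5 are therefore given beside the members. PTP4A3, the gene of PRL-3, read 10.81, 10.93 and 10.79 in PRL-3 arrays 4, 5 and 6, against 7.92, 8.03 and 7.97 in control arrays 1, 2 and 3, which matches the labels. Of 15 marker genes of TF-1 cells, among them CD34, MYB and GATA1, 13 were measured, and all 13 averaged above 6.30 in both groups, the value that 95% of 339 olfactory receptor genes stayed under. Those receptors of the nose are not thought to be used in blood cells and stand in for a missing detection call. Probe sets differ in brightness at equal RNA, so this places a signal and does not measure an RNA level.

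NTS was high in every PRL-3 array and low in every control array. Its intensity was 348.3, 244.8 and 275.2 in PRL-3 arrays 4, 5 and 6, against 63.7, 78.4 and 78.5 in control arrays 1, 2 and 3. On the log2 scale these were 8.44, 7.94 and 8.10 with PRL-3 and 5.99, 6.29 and 6.29 with the control vector. The groups did not overlap, which held for 12.1% of all genes in the higher direction. The lowest PRL-3 array lay 1.64 above the highest control array on the log2 scale, where the PRL-3 arrays spanned 0.51 and the control arrays 0.30. NTS averaged 8.16 ± 0.26 in PRL-3 arrays and 6.19 ± 0.17 in control arrays (means of log2 intensity with SD, n = 3 each). PRL-3 minus control came to 1.97 ± 0.14 (log2, limma's moderated SE), a 3.91-fold ratio of signals and the sixth in size among the rises of the 18377 genes. The control side of this ratio lay under the 6.30 mark, so neither the ratio nor the rank is an exact measure of the change in NTS transcript. Without control 1 and PRL-3 5 it was 1.98.

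The control signal of NTS was dim. It stood at the 31.7 percentile of all genes in the mean of the control arrays, above 92.9% of the olfactory receptor genes but under the 6.30 given above. In PRL-3 arrays its mean stood at the 78.9 percentile of all genes and above each of the 339 olfactory receptor genes. The margin over the brightest of these was narrow, 8.16 for NTS against 8.15 (log2 means of PRL-3 arrays). How much of the control signal came from NTS transcript was not measured. The order of NTS within the PRL-3 group, with array 4 highest and array 5 lowest, was not that of PTP4A3, which was highest in array 5.

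**Figure D1:**
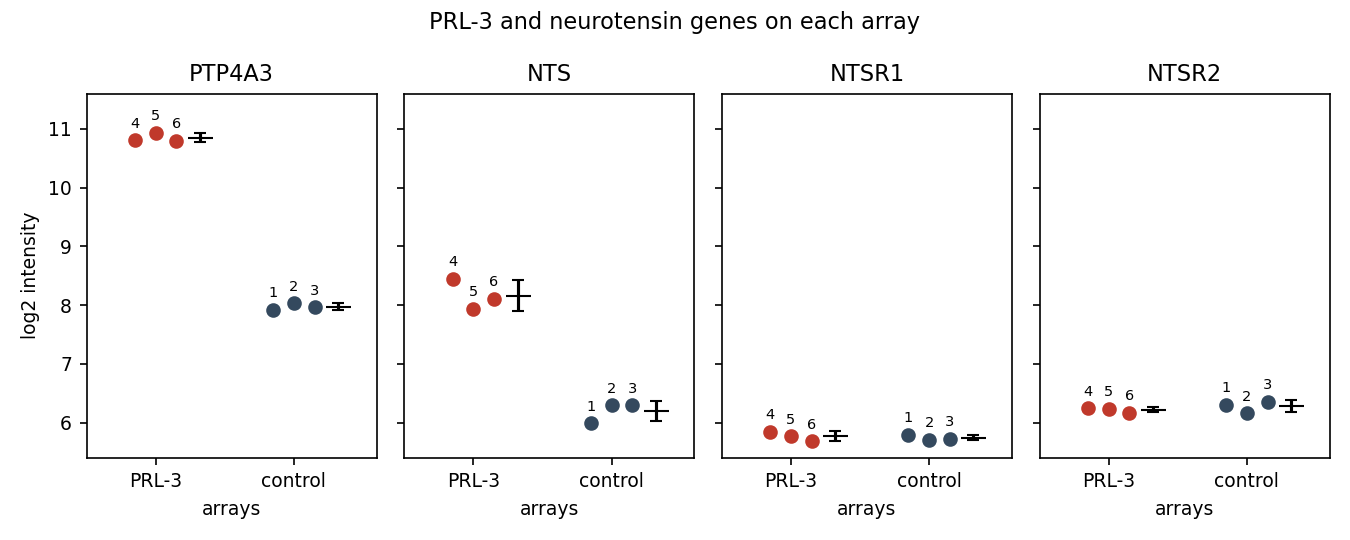
Log2 intensity (vertical axis) of PTP4A3, NTS, NTSR1 and NTSR2 on each PRL-3 and control array, with array numbers above the points and the mean and SD over 3 arrays as black bars. PTP4A3 and NTS are high in all 3 PRL-3 arrays, while the points of NTSR1 and NTSR2 overlap between groups near 5.7 and 6.2.

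NTSR1, the main signalling receptor for the peptide, showed no such gap. It read 5.85, 5.77 and 5.68 in PRL-3 arrays 4, 5 and 6, against 5.79, 5.71 and 5.72 in control arrays 1, 2 and 3 (log2 intensity). The highest and the lowest of the 6 arrays were both PRL-3 arrays. The difference was 0.024 ± 0.072 (log2, SE, 95% interval -0.14 to 0.19) and did not pass in limma (adjusted p = 0.915). In linear terms that interval ran from 0.906- to 1.14-fold of control. Its signal was the dimmest of the measured members, at the 20.9 percentile of genes in PRL-3 and the 20.2 percentile in control arrays, above 81.1% and 77.9% of the olfactory receptor genes. The sign of so small a difference was not stable: without PRL-3 4 it was -0.018, and without control 1 and PRL-3 5 it was 0.048.

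NTSR2, the second surface receptor, which binds neurotensin with lower affinity, read 6.24, 6.24 and 6.17 in PRL-3 arrays 4, 5 and 6, against 6.31, 6.16 and 6.36 in control arrays 1, 2 and 3 (log2 intensity). All PRL-3 values lay between the lowest and the highest control array. The difference was -0.058 ± 0.075 (log2, SE, 95% interval -0.23 to 0.11), with adjusted p = 0.76 in limma, and -0.053 without control 1 and PRL-3 5. Its mean signal, 6.22 in PRL-3 and 6.28 in control arrays, lay under the 6.30 that marks the top 5% of olfactory receptor genes. Neither receptor's signal thus stood clear of genes not thought to be used in these cells, and a transcript below the reach of these probes would not be seen.

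**Figure D2:**
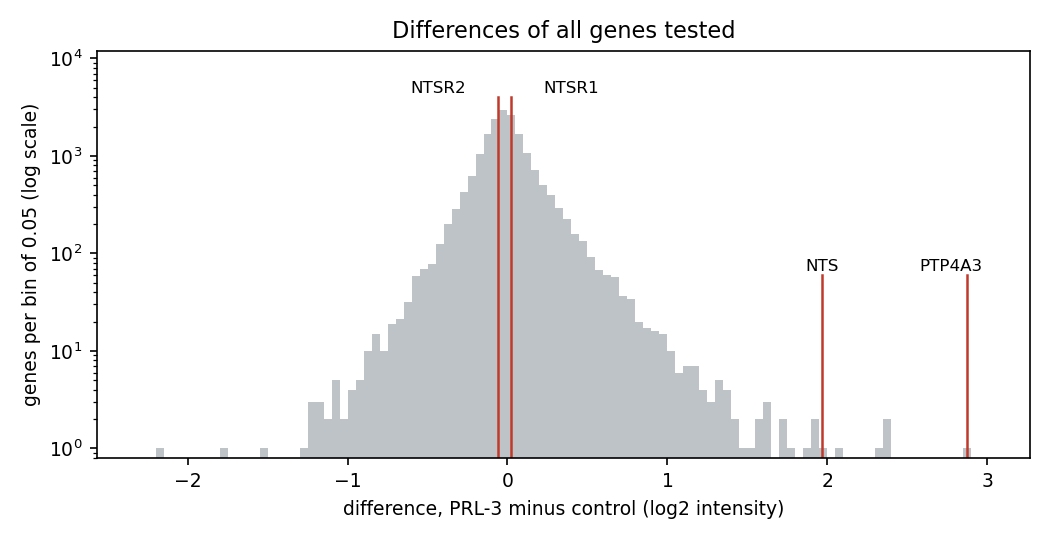
Number of genes (vertical axis, log scale) by difference, PRL-3 minus control in log2 intensity (horizontal axis), for the 18377 genes tested, with PTP4A3, NTS, NTSR1 and NTSR2 marked by red lines. NTS, at 1.97, lies in the far right tail, and NTSR1 and NTSR2 lie in the central peak.

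The start of NTS is shown because NTS was the member that differed between the groups and because transcription factors of the AP-1 and CREB families are known to act on this region in the rat gene. The 250 bases before the RefSeq start of NTS, at chr12:85874045-85874294 of GRCh38.p14, plus strand, read as follows, with motif matches in capitals.
NTS: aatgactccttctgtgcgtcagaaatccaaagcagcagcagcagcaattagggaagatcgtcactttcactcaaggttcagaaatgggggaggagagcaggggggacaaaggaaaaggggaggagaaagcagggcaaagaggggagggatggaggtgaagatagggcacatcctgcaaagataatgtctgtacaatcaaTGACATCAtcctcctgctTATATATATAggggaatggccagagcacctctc
The capitals mark TGACATCA, a match to the CRE motif TGACNTCA that begins 51 bases before the start, and a run of TATA matches. The motifs were searched on both strands: TGANTCA for AP-1, TGACNTCA for CRE and TATANA for a TATA box. The AP-1 letters were not in this window. The TATANA matches begin 33, 31 and 29 bases before the start and overlap each other. Of 35116 RefSeq start regions of the same length, 6.87% held TGACNTCA, 6.57% held TGANTCA and 17.7% held TATANA. The same windows of NTSR1 and NTSR2 held none of the 3 motifs. The NTS window had 49.2% G and C with 2 CG pairs, that of NTSR1 82% with 38 and that of NTSR2 58.4% with 14, where the medians over all start regions were 58% and 11. These matches describe letters and show no binding.

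The genes beside the 3 members did not pass the test. Over all genes, 7.69% had an adjusted p under 0.05 in limma. Of all genes 4.58% were called higher in PRL-3 arrays and 3.11% lower. An unadjusted p under 0.05 in limma was met by 3704 of the 18377 genes, the background for such counts here and below. Of the 5 nearest measured genes on either side of NTS on chromosome 12, 0 of 10 passed, with 2 at an unadjusted p under 0.05 in limma, and their differences ran from -0.23 to 0.44 (log2). RASSF9, the nearest on one side, differed by 0.089 ± 0.065 and MGAT4C, the nearest on the other, by -0.023 ± 0.075 (log2, SE). Farther out on the first side ALX1 differed by 0.10, LRRIQ1 by -0.030, SLC6A15, an amino acid transporter gene, by -0.069 and TMTC2 by 0.015. On the second side MKRN9P differed by -0.0045, C12orf50 by -0.051 and RLIG1, an RNA ligase gene, by -0.23. The exception in size was CEP290, a gene of the ciliary base, at 0.44 ± 0.14 (adjusted p = 0.113, limma), which passed without PRL-3 5 (0.60, adjusted p = 0.016) and without control 1 and PRL-3 5 (0.51, adjusted p = 0.0155). RASSF9, MGAT4C, ALX1, LRRIQ1, SLC6A15, TMTC2, MKRN9P and C12orf50 had mean signals under the 6.30 mark in both groups. These ran from 4.70 (LRRIQ1) to 6.15 (MKRN9P) in PRL-3 arrays (log2). For them the lack of a call does not show that the transcripts were unchanged. RLIG1 (8.32 in PRL-3 and 8.54 in control arrays) and CEP290 (6.98 and 6.54) lay above the mark. Around NTSR1 on chromosome 20 and NTSR2 on chromosome 2, 0 of 10 genes passed at each, with 1 and 2 at an unadjusted p under 0.05 in limma. TRIB2, a pseudokinase gene beside NTSR2, was named after its value was seen: it differed by -0.58 (adjusted p = 0.079, limma) and passed without control 3 (-0.71, adjusted p = 0.0368) or without PRL-3 5 (-0.74, adjusted p = 0.0246, limma).

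**Figure D3:**
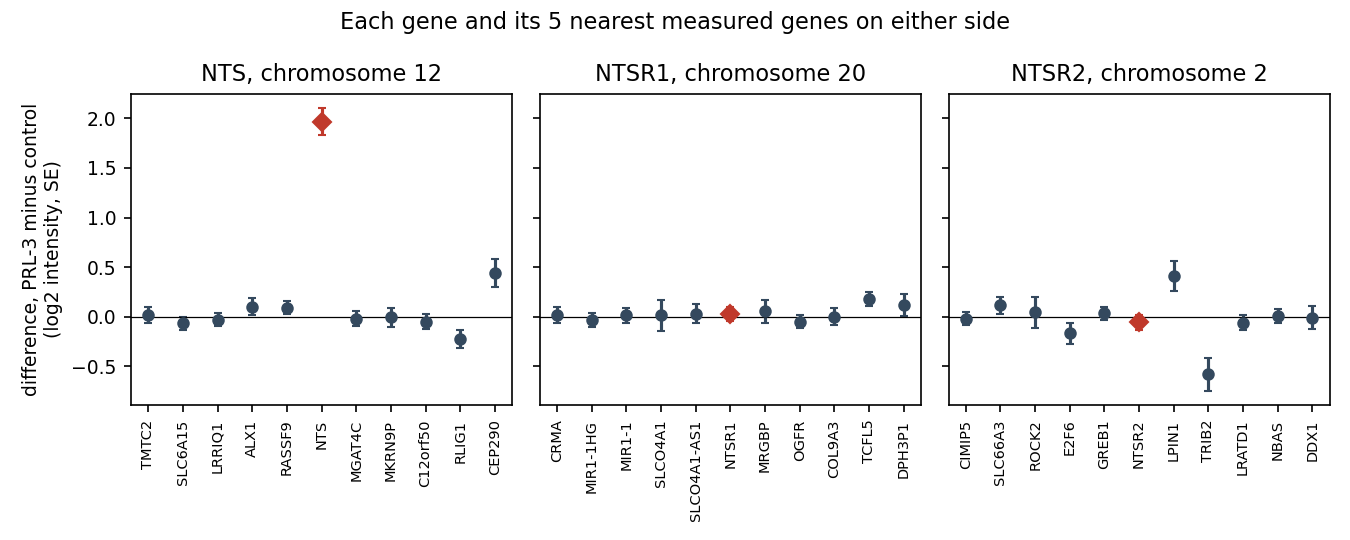
Difference, PRL-3 minus control in log2 intensity with SE (vertical axis), for NTS, NTSR1 and NTSR2 (red diamonds) and their 5 nearest measured genes on either side in RefSeq order (dark points). NTS stands at 1.97 while its neighbours run from -0.23 to 0.44. All of these neighbours but RLIG1 and CEP290 had mean signals under the 6.30 mark in both groups.

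Genes around the peptide and its receptors were then read by role, 124 of 133 listed genes being measured. Of these, 12 rose and 1 fell in PRL-3 arrays, 10.5% in all, where 7.69% of all genes passed. Their median difference was -0.023 against -0.015 for all genes (log2), and 51 lay above 0 and 73 below. The count changed with 1 array left out. Without control 2 or without PRL-3 4, 5 of the 13 called genes passed. Without PRL-3 6, 6 did, and without PRL-3 5, 8 did. Calls over all genes changed as well, from 842 higher and 571 lower with all arrays to 388 and 178 without control 2. They were 405 and 199 without PRL-3 4 and 431 and 228 without PRL-3 6. Without PRL-3 5 they were 792 and 466, and without control 3 they were 791 and 747. Without control 3 all 13 passed and 4 more did, namely CPD, SORL1, NTRK3 and the arrestin gene ARRB1 (-0.72, adjusted p = 0.0172, limma).

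Genes that serve the cutting and finishing of peptide precursors, most of them enzymes, did not pass in 11 of 11 measured. Of these, 2 had an unadjusted p under 0.05 in limma. CPD, a carboxypeptidase of the Golgi that trims basic ends, read 9.58 ± 0.076 in PRL-3 and 9.29 ± 0.075 in control arrays (log2, SD, n = 3 each), and its groups did not overlap (adjusted p = 0.0565, limma). It passed without control 3 (adjusted p = 0.0486), after a shift of the arrays to 1 median (0.0438) and with an offset of 16 (0.044, limma). CPD also passed with array weights (adjusted p = 0.0048, limma), a setting that called 2122 genes higher and 2303 lower. Over all genes, 24.3% had groups that did not overlap. PCSK5, a proprotein convertase, differed by -0.15 (adjusted p = 0.227, limma). The convertase genes PCSK1 and PCSK2, which cut the neurotensin precursor in neuroendocrine cells, were not analysed here.

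Among 5 peptidases that break neurotensin down, MME, the membrane enzyme neprilysin, was the 1 that passed, where 7.69% of all genes passed and 4.58% were higher. It read 5.79, 5.87 and 5.90 in PRL-3 arrays 4, 5 and 6, against 5.31, 5.39 and 5.56 in control arrays 1, 2 and 3 (log2 intensity). These groups lay apart, with means of 5.86 in PRL-3 and 5.42 in control arrays that were both under the 6.30 mark, and with a difference of 0.44 ± 0.083 (adjusted p = 0.0184, limma). It lost its call without control 1, control 2, PRL-3 4 or PRL-3 6, with adjusted p of up to 0.0936 in limma, and without control 1 and PRL-3 5 together. The other four, which include the cytosolic enzymes THOP1 and PREP and the related NLN, did not pass. They were named after their values were seen, at 0.073 for THOP1, -0.12 for PREP and 0.040 for NLN (log2 differences).

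Of the 4 measured relatives of sortilin in the VPS10 family, 0 passed, with 1 at an unadjusted p under 0.05 in limma. SORL1, a sorting receptor also called SORLA, read 6.36, 6.48 and 6.43 in PRL-3 arrays 4, 5 and 6, against 5.98, 6.07 and 6.26 in control arrays 1, 2 and 3 (log2 intensity), groups that did not overlap (0.32 ± 0.088, adjusted p = 0.0703, limma). It passed without control 3 (0.40, adjusted p = 0.0226), after quantile normalization (adjusted p = 0.0399) and with array weights (adjusted p = 0.00411, limma). SORCS2, a relative that binds neurotrophin precursors, differed by -0.097 (adjusted p = 0.53, limma). Ligands, partners and carriers of sortilin passed in 0 of 18, with 1 at an unadjusted p under 0.05 in limma. The largest difference was that of NTRK3, the receptor for neurotrophin 3, at 7.77, 7.89 and 7.46 in PRL-3 arrays 4, 5 and 6 against 8.47, 8.33 and 7.91 in control arrays 1, 2 and 3 (log2 intensity). These groups lay 0.53 apart in their means, PRL-3 below control (adjusted p = 0.0931, limma). NTRK3 passed without control 3 (-0.70, adjusted p = 0.0174) and with array weights (-0.65, adjusted p = 0.00186, limma). VPS26A, a retromer subunit, differed by 0.25 ± 0.24 (log2, SE, adjusted p = 0.658, limma).

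Signalling genes that sit below NTSR1 rose in 5 of 21 measured and fell in 0, where 4.58% of all genes were higher. The list median was -0.040 (log2), with 9 genes above 0 and 12 below. Of the 21, 10 had an unadjusted p under 0.05 in limma, where 3704 of all 18377 genes did. Among those that did not pass, the arrestin gene ARRB1 and the phospholipase C genes PLCB2 and PLCB1 differed by -0.51, -0.40 and -0.29. PRKCD and PRKD1 differed by 0.30 each. With array weights ARRB1, PLCB2, PLCB1, GNA11 and PRKCB passed as lower and PRKD1 as higher in limma. ARRB1 also passed as lower without control 3. All of these were named after their values were seen. RGS2, which speeds the shut-off of Gq, read 7.83, 7.80 and 7.84 in PRL-3 arrays 4, 5 and 6, against 6.56, 6.51 and 6.71 in control arrays 1, 2 and 3 (log2 intensity). The arrays of each group lay close together, and the difference was 1.23 ± 0.075 or 2.34-fold (adjusted p = 0.000135, limma). The protein kinase C genes PRKCA and PRKCE rose by 0.69 ± 0.12 and 0.44 ± 0.084 (log2, SE, adjusted p = 0.0136 and 0.0189, limma). GNA15, a Gq-family subunit found mainly in blood cells, rose by 0.52 ± 0.11 (adjusted p = 0.0247, limma). GRK5, a kinase that marks active receptors for arrestin, was the other that passed, at 0.42 ± 0.062 (adjusted p = 0.00673, limma), and was named after its value was seen.

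GRK5 had a second probe set, which differed by -0.0064 ± 0.13 (log2, SE, adjusted p = 0.988, limma over all named probe sets), and the gene did not pass on the mean of its probe sets. PRKCA lost its call without PRL-3 4 (adjusted p = 0.0548), PRKCE without control 2 or PRL-3 6 (up to 0.0827), and GNA15 without control 2 or any 1 of the PRL-3 arrays (up to 0.107, limma). RGS2 passed in all of these fits. The G protein subunit that NTSR1 mainly uses, GNAQ, was bright and did not pass, at 10.02 in PRL-3 and 10.07 in control arrays (log2 means, adjusted p = 0.802, limma), and was named after its value was seen.

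Among 12 genes that neurotensin is known to induce or to act through in epithelial and tumour cells, 3 rose and 0 fell, where 4.58% of all genes were higher and 3.11% lower. HBEGF, a ligand of the EGF receptor, read 7.13, 7.13 and 6.78 in PRL-3 arrays 4, 5 and 6, against 6.03, 6.21 and 6.42 in control arrays 1, 2 and 3 (log2 intensity). The groups did not overlap, and the difference was 0.79 ± 0.13 (adjusted p = 0.00921, limma). CXCL8, the chemokine interleukin-8, rose by 0.51 ± 0.10 (adjusted p = 0.0237) and the receptor gene ERBB3 by 0.28 ± 0.066 (adjusted p = 0.0389, limma). The signal of ERBB3, 6.03 in PRL-3 and 5.75 in control arrays, lay under the 6.30 mark in both groups, as did that of HBEGF in control arrays (6.22), so these sizes are differences of signals near background. HBEGF lost its call without control 2 or PRL-3 4 (adjusted p of up to 0.0544). CXCL8 lost it without control 1, control 2, PRL-3 4 or PRL-3 5 (up to 0.089), and ERBB3 whenever 1 array other than control 3 was left out (up to 0.154, limma). CXCL8 and ERBB3 also lost it without control 1 and PRL-3 5 together. The other 9 did not pass, the list's median was -0.0077, and EGR1, an early response gene, was named after its value was seen, at -0.020 (log2).

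Of 13 measured factors of the AP-1, CREB and glucocorticoid receptor families known to act on the NTS promoter, JUN was the 1 that rose, and 0 fell, a share of 7.69% that equals the 7.69% of all genes that passed. JUN, a main subunit of AP-1, read 7.49, 7.58 and 7.74 in PRL-3 arrays 4, 5 and 6, against 6.77, 6.71 and 6.58 in control arrays 1, 2 and 3 (log2 intensity). These groups lay apart, with a difference of 0.92 ± 0.088 or 1.89-fold (adjusted p = 0.00104, limma), and JUN kept its call whichever single array was left out. The 12 others had differences between -0.24 and 0.21, with 4 at an unadjusted p under 0.05 in limma.

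**Figure D4:**
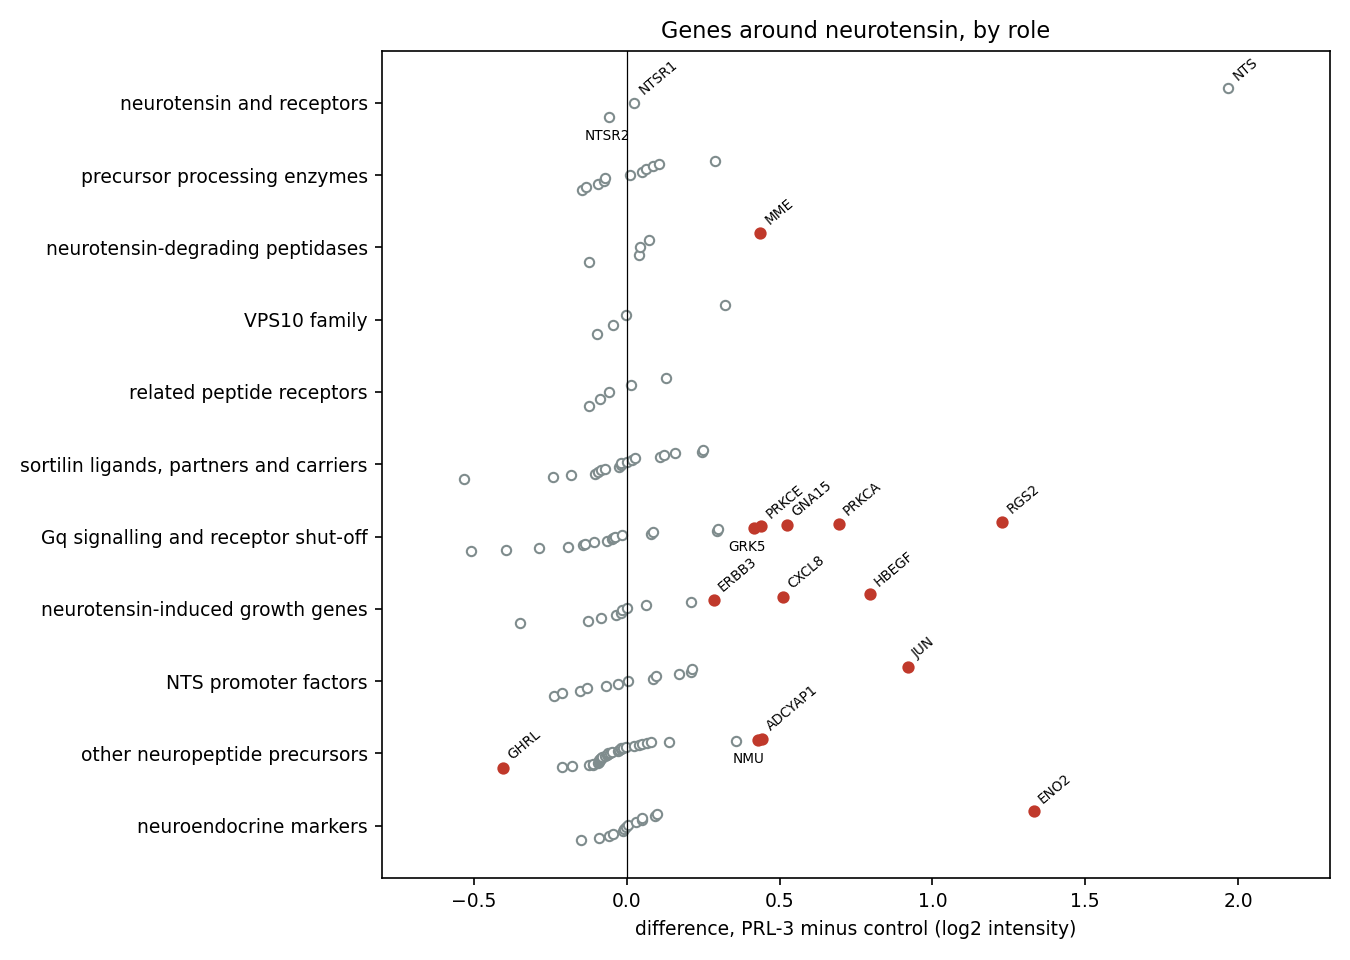
Difference, PRL-3 minus control in log2 intensity (horizontal axis), of each measured gene in lists grouped by role (rows, genes within a row set in order of difference). Red points passed adjusted p 0.05 in limma, white points did not, and NTS is drawn white because its difference was not tested; beside NTS at 1.97, RGS2 at 1.23 and ENO2 at 1.33 are the largest.

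Other neuropeptide and gut hormone precursors differed less than NTS. Since NTS was taken up for its large rise, nearly any gene would fall short of it. Of 35 measured, 2 rose and 1 fell in PRL-3 arrays, 8.57% in all where 7.69% of all genes passed, and their differences ran from -0.41 to 0.44 (log2). ADCYAP1, the precursor of PACAP, rose by 0.44 ± 0.083 (adjusted p = 0.0175) and NMU, that of neuromedin U, by 0.43 ± 0.086 (adjusted p = 0.023, limma). The signal of ADCYAP1 lay under the 6.30 mark in both groups, at 6.21 in PRL-3 and 5.76 in control arrays. NMU read 8.59, 8.81 and 8.78 in PRL-3 arrays 4, 5 and 6, against 8.40, 8.29 and 8.21 in control arrays 1, 2 and 3 (log2 intensity), groups that did not overlap. GHRL, that of ghrelin, read 7.18, 7.17 and 7.17 in PRL-3 arrays against 7.74, 7.56 and 7.44 in control arrays and fell by 0.41 (adjusted p = 0.0274, limma). All 3 calls were lost in some fits with 1 array left out, while the differences kept their direction. In those fits NMU ran from 0.38 to 0.50, ADCYAP1 from 0.37 to 0.50 and GHRL from -0.48 to -0.33 (log2). NMU lost its call without control 2, PRL-3 5 or PRL-3 6 (adjusted p of up to 0.102), ADCYAP1 without PRL-3 4 or PRL-3 6 (up to 0.0779), and GHRL whenever 1 array other than control 3 was left out (up to 0.106, limma).

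The receptors most like NTSR1 and NTSR2, which include those for ghrelin, motilin and neuromedin U, passed in 0 of 5, with 0 at an unadjusted p under 0.05 in limma. GPR39, a zinc-sensing relative, differed by 0.13 ± 0.11, and GHSR, the ghrelin receptor, by -0.12 ± 0.090 (log2, SE, adjusted p = 0.598 and 0.537, limma). NMUR1 and NMUR2, the receptors for neuromedin U, differed by -0.058 and 0.014 and were named after their values were seen.

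Markers of neuroendocrine and neuronal cells, the usual makers of neurotensin, passed in 1 of 14 measured, or 7.14%, where 7.69% of all genes passed. That gene was ENO2, a glycolytic enzyme used as a neuronal marker, which rose by 1.33 ± 0.14 (adjusted p = 0.00153, limma), while CHGA, SYP and SNAP25 differed by 0.049, 0.031 and 0.048. Of the 14 differences, 7 lay above 0 and 7 below, among the latter INSM1 at -0.15 (adjusted p = 0.251, limma). CHGA, SYP, SNAP25 and INSM1 were named after their values were seen. Of the 14, 3 averaged above the 6.30 that 95% of olfactory receptor genes stayed under, in PRL-3 and in control arrays alike. The summed intensity of the 14 markers was 1133 to 1212 in PRL-3 arrays and 986 to 1009 in control arrays. Without ENO2 it was 852 to 869 in PRL-3 and 862 to 903 in control arrays, ranges that overlap. The TF-1 markers summed to 6260 to 7131 in PRL-3 and 6401 to 7546 in control arrays, with KIT, the stem cell factor receptor (1.01, adjusted p = 0.000721), and CSF2RA, a GM-CSF receptor chain (0.27, adjusted p = 0.0407, limma), higher and 0 lower. Of the 13 TF-1 marker differences, 4 lay above 0 and 9 below, with a median of -0.081 (log2). Of these, 8 had an unadjusted p under 0.05 in limma. CSF2RA lost its call whichever single array was left out (adjusted p of up to 0.149). It also lost it with robust variances and an intensity trend (adjusted p = 0.101, limma). CD34 (-0.57), CSF2RB (-0.71) and NFE2 (-0.48) passed as lower without control 3, and CSF2RB (-0.73) also without PRL-3 5, in limma. NFE2 also passed as lower after quantile normalization (-0.39, adjusted p = 0.0313, limma). With array weights CD34, CSF2RB, NFE2, TAL1 and KLF1 passed as lower, and GATA2 and IL3RA as higher, in limma. All of these were named after their values were seen. In whole cultures, more cells that use a gene and more RNA per cell cannot be told apart.

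The genes with values most like those of NTS were found by the root mean square difference over the 6 arrays, after each gene was centred on its mean. The closest was CALB1, a calcium-binding protein, at 0.075 (log2), then CRYAB, a small heat shock protein, at 0.17, SHOC2, which links RAS to RAF kinases, at 0.18, PLEKHA5 at 0.23 and MSRA, which repairs oxidised methionine, at 0.24. Their differences ran from 1.62 for PLEKHA5 to 1.93 for CALB1, against 1.97 for NTS (log2). CALB1 and NTS also shared the order of the PRL-3 arrays, with 4 highest and 5 lowest. This likeness is a description over 6 arrays in 2 groups, and genes with a difference of similar size come out as alike by construction.

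**Figure D5:**
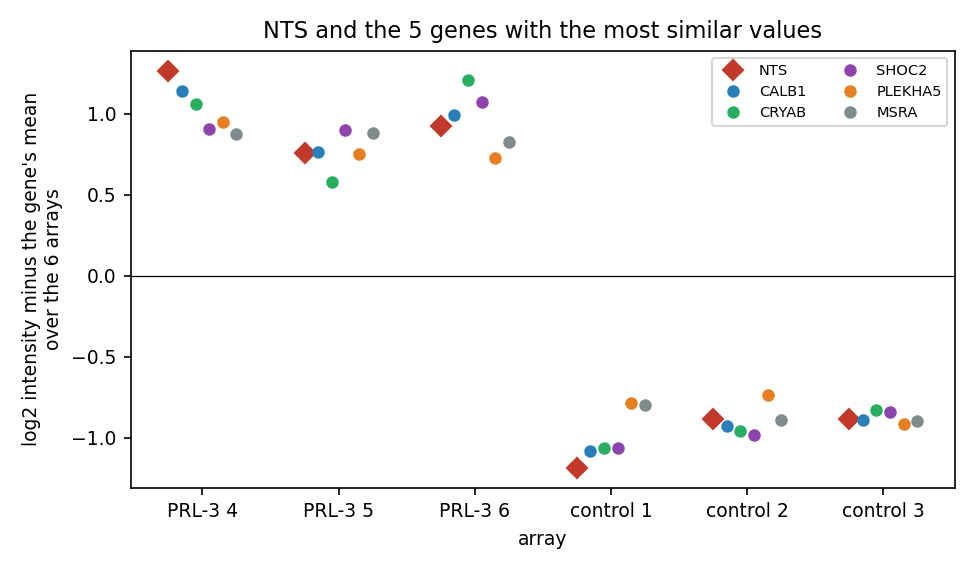
Log2 intensity minus each gene's mean over the 6 arrays (vertical axis) for NTS (red diamonds) and the 5 genes with the smallest root mean square difference from it, by array (horizontal axis). All 6 genes lie above 0 in PRL-3 arrays and below 0 in control arrays, and CALB1 lies closest to NTS.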

How the data were processed

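RNA of TF-1 cells was extracted with a Qiagen RNeasy kit and turned into biotinylated cDNA with Nugen kits, per the labels' protocols. The authors deposited 1 intensity per probe set and array on a linear scale, for 28869 probe sets. The medians lay close together, so the values were taken as already normalized; the steps of summary, background correction and normalization are not given in the sources used here. Deposited intensities were turned to log2 with no offset. By the platform annotation 19310 probe sets had 1 gene symbol, 1752 several (not used) and 7807 none here; 19279 matched RefSeq (GRCh38.p14) by Entrez identifier. The brightest probe set stood for each of 18377 genes. The test of PRL-3 against control used limma 3.58.1 (lmFit, eBayes; R 4.3.3), two-sided, with Benjamini-Hochberg adjustment over all genes and a threshold of 0.05, after a trial on simulated data. Promoter sequences were those of RefSeq, GRCh38.p14; 3 of 3 members matched. The number of arrays limits the precision, and no detection call was given.

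The members and lists were chosen with earlier results of these data known. Of each list, up to 4 genes with the largest differences past the threshold were named, or the 2 largest where none passed, with the 5 nearest measured genes on either side of NTS and the 5 genes most like it. Alternatives were quantile normalization, a shift to 1 median, array weights, robust variances with an intensity trend, a filter at the median signal, an offset of 16, averaged probe sets per gene, all named probe sets, each array left out in turn, and control 1 and PRL-3 5 left out.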

Additional observations from a re-analysis of the deposited data

How the results depend on the processing

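NTS kept its direction in all 15 alternatives, at 1.76 (offset of 16) to 2.08 (log2), and 1.83 (without PRL-3 4) to 2.08 (without PRL-3 5) with 1 array left out. NTSR1 and NTSR2 passed in none of the 14 alternatives that held them (adjusted p of at least 0.535 and 0.57, limma); the filter at the median signal left both out. The sign of both turned: NTSR1 ran from -0.018 (without PRL-3 4) to 0.067 with 1 array left out, and NTSR2 was 0.024 with array weights; the cause was not tested. Array weights gave 2122 genes higher and 2303 lower, among them 19 and 15 listed genes and 5 neighbours. The filter left 7 listed genes higher, since called genes with signals under the median, such as MME and ERBB3, were then not tested. With 1 array left out, 388 to 792 genes were higher and 178 to 747 lower, both lowest without control 2, where 842 and 571 passed with all arrays. Of the listed genes, 5 to 14 were higher and 0 to 3 lower, and 0 to 2 neighbours passed. Without control 1 and PRL-3 5, 0 listed genes were lower and 2 neighbours passed. No paired analysis was made because the labels number the arrays in 1 run over both groups and do not say which, if any, belong together.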
